A study of Sus scrofa with 15 samples.

Results

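The porcine liver holds 2 populations of CD3-CD172a-CD8α+ natural killer (NK) cells that differ in the amount of CD8α on their surface, and their transcriptomes were compared within the same livers. Members were chosen by their labels: the 5 libraries labelled Liver resident NK, which hold CD8αdim cells (lrNK cells), and the 5 labelled Conventional liver NK, which hold CD8αhigh cells. They are 10 of the 15 libraries of a study that also sequenced conventional CD8αhigh NK cells from blood in 5 libraries. The pigs were 6 months old, each gave a library of all 3 populations, and pigs 1 to 5 are the donors numbered so in the labels. Both liver populations were washed out of the same organ by perfusion through the portal vein and separated by magnetic depletion and FACS, so handling was shared within a pig. The level of CD8α was itself the sort criterion, and the source field of the labels names PBMC for the liver samples too. Sequencing started at the 3′ end of polyadenylated transcripts, so a count does not grow with transcript length.

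NK cells are innate lymphocytes that kill infected or transformed cells with perforin and granzymes and secrete cytokines. Conventional NK cells circulate, and their maturation runs under the transcription factors T-bet and EOMES. Resident NK cells stay in a tissue such as the liver sinusoids, where chemokine receptors such as CXCR6 and a lack of receptors for exit signals are known to hold them.

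The libraries held 2886686 to 5680221 counts on genes in CD8αhigh liver NK cells and 2003499 to 3776823 in lrNK cells, with medians of 3877028 and 2407859. Markers of other cells of liver and blood were looked up. Defining markers of hepatocytes summed to 1.55 to 4.83 CPM, the count scaled to library size, in CD8αhigh libraries and 4.80 to 29.7 CPM in lrNK libraries, and 9 of the 14 were at 0 in all 10. Markers of B cells were higher in every lrNK library, summing to 397 to 1114 CPM against 38.8 to 87.4 CPM, and are given in full where genes shared with B cells are described. Among CD8αhigh libraries that of pig 1 stood apart toward the lrNK cells, and among lrNK libraries that of pig 3 stood apart. The sort markers went with the labels: CD8A, which the sort fixed, had 43.4 ± 10.5 CPM in lrNK cells and 490.3 ± 138 CPM in CD8αhigh cells (mean ± SD, n = 5, as for all levels below). CD3G, a chain of the T cell receptor complex, was present in both, and all T cell markers together summed to 162 to 632 CPM in lrNK and 803 to 1194 CPM in CD8αhigh libraries. SIRPA, which encodes CD172a, was counted at most 8 times in any liver library.

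Of 10939 genes tested, 1601 differed between lrNK and CD8αhigh liver NK cells, which is 14.6%. A gene is called where the adjusted p of edgeR's quasi-likelihood test is below 0.05, and all adjusted p-values below come from that test with Benjamini-Hochberg adjustment over the genes tested. In lrNK cells 761 genes (6.96%) were higher and 840 (7.68%) were lower. The difference was over 2-fold for 525 higher genes (4.8%) and 607 lower genes (5.55%), and over 8-fold for 177 (1.62%) and 212 (1.94%). The same direction was seen in all 5 pigs for 1435 of the called genes. Without pig 5, 1051 genes were called, and the higher ones numbered 458. Levels of the populations did not overlap for 1297 genes (11.9% of those tested), of which 1123 were called. A lower level in RNA from a sorted population cannot separate fewer cells that express a gene from less RNA of it per cell, and this holds for each result below.

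The median log2 difference of the genes called higher was 1.05 in pig 1, 1.37 in pig 2, 1.42 in pig 3, 1.60 in pig 4 and 1.64 in pig 5. For genes called lower it was -1.37 in pig 1, -1.39 in pig 2, -1.65 in pig 3, -1.70 in pig 4 and -1.65 in pig 5. Pig 1 thus had the smallest difference in both directions, with pig 2 close to it for genes called lower.

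**Figure D1:**
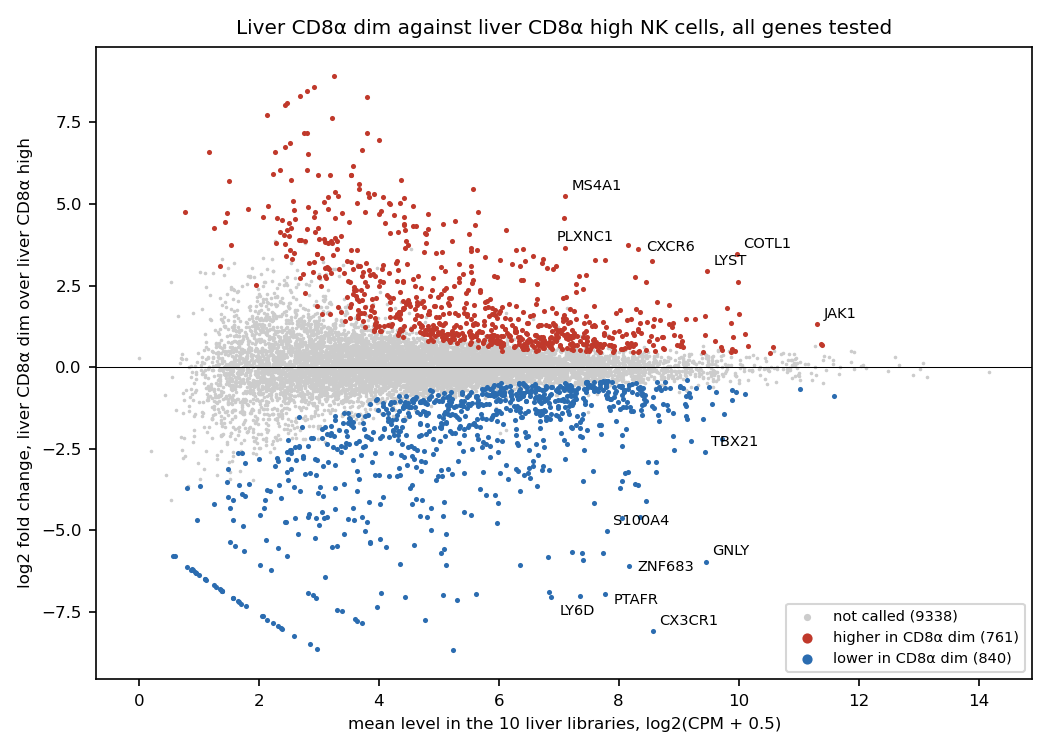
Log2 fold change of lrNK (CD8α dim) over CD8α high liver NK cells (y axis) against the mean level in the 10 liver libraries in log2(CPM + 0.5) (x axis), 1 point for each of 10939 genes tested. The 761 red points are genes called higher in lrNK cells and the 840 blue points genes called lower; the points on slanted lines at the lower left are genes with almost no count in lrNK cells, whose fitted fold depends on the prior count.

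PLXNC1, the plexin that serves as receptor for semaphorin 7A, was among the genes with the largest rise. It lies on chromosome 5, 88900238 to 89055837 of Sscrofa11.1, the assembly of all coordinates here. It was counted at 116, 15, 24, 25.5 and 19.6 CPM in CD8αhigh liver NK cells of pigs 1 to 5 and at 527, 417, 433, 588 and 668 CPM in their lrNK cells. All lrNK libraries lay above all CD8αhigh libraries, and pig 1 held the highest CD8αhigh level (log2 fold change 3.74, SE 0.48, adjusted p = 1.03e-05). The annotated gene shares 9637 bases with CEP83, which was also higher in lrNK cells (log2 fold change 2.75, adjusted p = 1.27e-06), and the counting rule for such bases is not given in the sources used here.

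COTL1 encodes coactosin-like protein, which binds filamentous actin. It was counted at 429.6, 125, 169, 71.7 and 44.2 CPM in CD8αhigh liver NK cells of pigs 1 to 5 and at 1413, 1305, 2682, 2015 and 1805 CPM in lrNK cells. The populations did not overlap, and COTL1 was among the most abundant transcripts that gained in lrNK cells (log2 fold change 3.46, SE 0.46, adjusted p = 1.70e-05). The gene lies on chromosome 6, 4099341 to 4146281.

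LY6D, which encodes a small GPI-anchored surface protein of the Ly6 family, showed the opposite pattern. Its levels were 148, 101, 296, 616 and 467 CPM in CD8αhigh cells of pigs 1 to 5 and 4.15, 0, 7.31, 0.843 and 1.31 CPM in lrNK cells. The gene varied between pigs in CD8αhigh cells and was low in every lrNK library (log2 fold change -7.02, SE 0.66, adjusted p = 1.61e-07). It lies on chromosome 4, 1444029 to 1445714. S100A4, a calcium-binding protein that acts on nonmuscle myosin, had 399.9, 383, 453, 371 and 549 CPM in CD8αhigh cells and 14.5, 20.6, 18.5, 7.30 and 7.31 CPM in lrNK cells. Its CD8αhigh levels were much more even, no lrNK library came near them, and its SE was the smallest of the 4 genes (log2 fold change -5.03, SE 0.26, adjusted p = 9.16e-11). S100A4 lies on chromosome 4, 96088102 to 96091160.

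**Figure D2:**
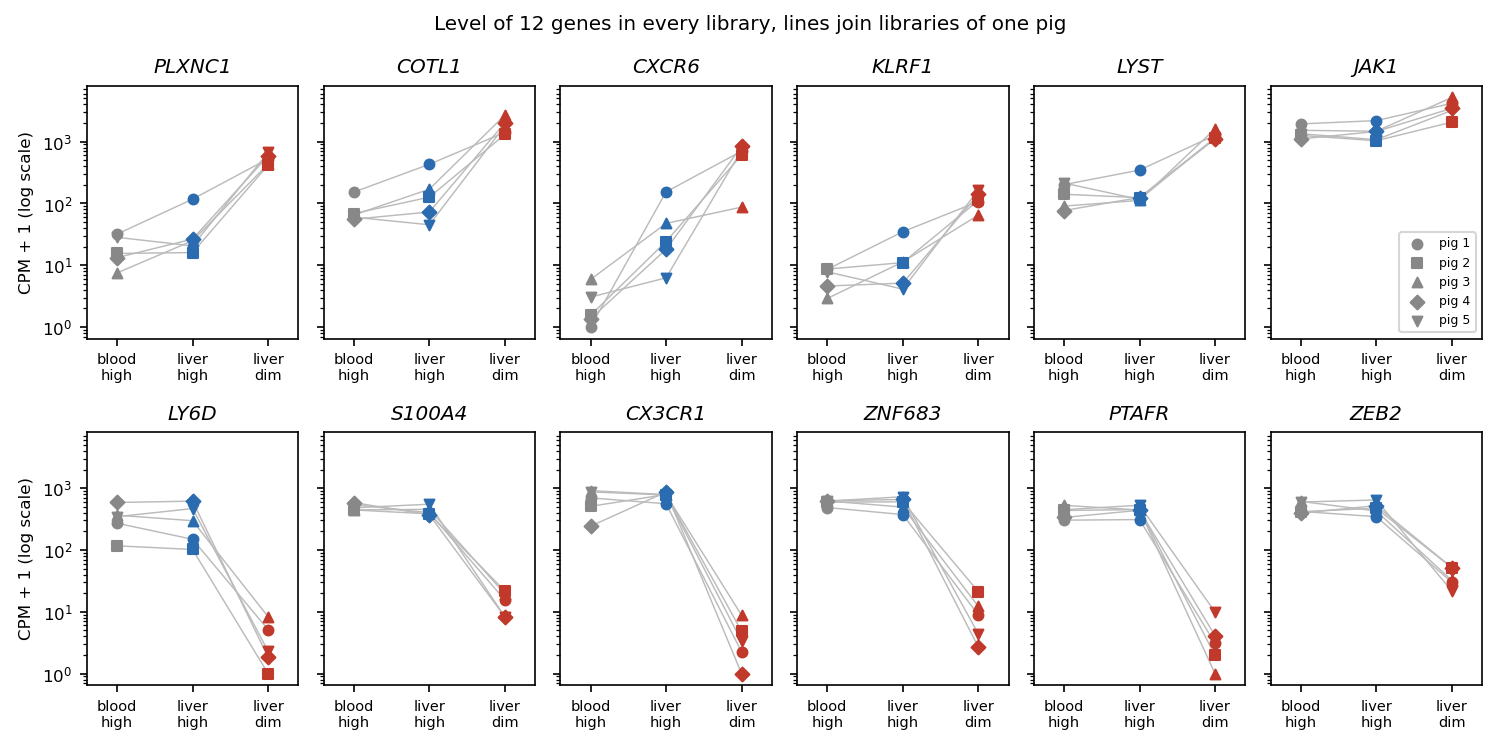
Levels in CPM + 1 (log scale, y axis) of 12 genes in blood CD8α high (grey), liver CD8α high (blue) and liver CD8α dim NK cells (red), with 1 symbol for each of the 5 pigs and lines joining libraries of a pig. In all panels except CXCR6 and JAK1 the 5 red points lie apart from the 5 blue points, while blue and grey points overlap in most; the CXCR6 level of pig 3 in lrNK cells, 86.2 CPM, lies below the CD8α high level of pig 1, 153 CPM.

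Beside PLXNC1 and COTL1, the largest rises among genes with at least 100 CPM and the same direction in all 5 pigs were those of MS4A1, JCHAIN, THY1, F2R, CXCR6, TOX2, DENND2D, ARHGAP18, RAB19 and KLRF1. MS4A1 encodes the B cell antigen CD20 and JCHAIN the joining chain of secreted immunoglobulins, and both are taken up with the B cell markers below. F2R, the thrombin receptor PAR1, had 35.9, 8.17, 38.5, 15.2 and 3.58 CPM in CD8αhigh cells of pigs 1 to 5 and 319, 191, 365, 159 and 233 CPM in lrNK cells (log2 fold change 3.66, SE 0.45, adjusted p = 5.29e-06). THY1, a GPI-anchored adhesion protein, had 25.9, 5.27, 1.95, 4.14 and 0 CPM against 166, 273, 44.8, 128 and 43.6 CPM, a wide spread in lrNK cells (log2 fold change 4.20, SE 0.74, adjusted p = 3.35e-04). Pig 1 held the highest CD8αhigh level of THY1.

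DENND2D and RAB19 belong to the Rab GTPase system of membrane traffic, as an exchange factor and a small GTPase. DENND2D had 142 ± 15.5 CPM in lrNK cells against 12.2 ± 10.6 CPM (log2 fold change 3.57, SE 0.45, adjusted p = 8.22e-06), and RAB19 had 394 ± 77.4 CPM against 40.6 ± 37.0 CPM (log2 fold change 3.29, SE 0.45, adjusted p = 2.33e-05). RAB19 shares 7328 annotated bases with SLC37A3, whose log2 fold change was 0.82. ARHGAP18, a GTPase-activating protein, had 64.9, 14.5, 9.48, 8.62 and 3.10 CPM in CD8αhigh cells and 179, 177, 121, 245 and 241 CPM in lrNK cells (log2 fold change 3.30, SE 0.52, adjusted p = 1.25e-04). For each of these genes the lrNK and CD8αhigh levels did not overlap.

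Among genes with at least 100 CPM and the same direction in all 5 pigs, the 12 largest falls were those of CX3CR1, LY6D, PTAFR, KIF7, PTH1R, ZNF683, GNLY, KLRG1, NR4A3, NOS2, S100A6 and DOCK5. CX3CR1, the receptor for the vascular chemokine fractalkine, lies on chromosome 13, 23944386 to 23957567. It had 559, 788, 785, 865 and 774 CPM in CD8αhigh liver NK cells of pigs 1 to 5 and 1.25, 3.84, 7.79, 0 and 2.35 CPM in lrNK cells (log2 fold change -8.10, SE 0.51, adjusted p = 6.48e-10). It went from an abundant transcript to at most 7.79 CPM in each of the 5 pigs, and to 0 in pig 4. KIF7, a kinesin-family regulator of hedgehog signalling, had 1.84 ± 3.18 CPM against 232 ± 52.1 CPM (log2 fold change -7.06, SE 0.50, adjusted p = 3.91e-09). NOS2, the inducible nitric oxide synthase, had 142, 149, 144, 196 and 166 CPM in CD8αhigh cells and 1.66, 2.88, 9.26, 0 and 0.261 CPM in lrNK cells (log2 fold change -6.06, SE 0.52, adjusted p = 4.06e-08). DOCK5, an exchange factor for the GTPase Rac, had 6.53 ± 5.10 CPM against 328 ± 52.4 CPM (log2 fold change -5.69, SE 0.44, adjusted p = 7.82e-09). For all 12 falls the populations did not overlap.

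Some differences were smaller as a fold but large in transcript number. JAK1, the kinase of many cytokine receptors, had 2188, 1034, 1472, 1459 and 1074 CPM in CD8αhigh liver NK cells and 4169.8, 2068, 5186, 3461 and 3200.0 CPM in lrNK cells of pigs 1 to 5. The lrNK level of pig 2 lay below the CD8αhigh level of pig 1, and within every pig the lrNK level was higher (log2 fold change 1.32, SE 0.23, adjusted p = 3.47e-04). RAVER2, an RNA-binding protein whose gene shares 259 bases with JAK1, had 1349 ± 357 CPM in lrNK cells against 527 ± 164 CPM (log2 fold change 1.36, adjusted p = 1.49e-04). SET, a histone chaperone and inhibitor of protein phosphatase PP2A, had 3312 ± 1157 CPM against 2053 ± 197 CPM (log2 fold change 0.69, adjusted p = 0.00867). Its highest lrNK level was that of pig 3, 5342 CPM.

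Apart from GNLY, SPN, FLNA and CX3CR1, which are described elsewhere, the largest losses in transcript number among called genes were those of ADGRG1, TBX21, PABPC1, RAP1B, ADD3 and SYNE1. ADGRG1, the adhesion G protein-coupled receptor GPR56, went from 3986 ± 409 CPM in CD8αhigh to 2159.8 ± 648 CPM in lrNK cells (log2 fold change -0.88, SE 0.18, adjusted p = 0.00119). RAP1B, a small GTPase that activates integrins, had 1259 ± 103 CPM and 465 ± 70.4 CPM (log2 fold change -1.44, SE 0.14, adjusted p = 1.76e-07). ADD3, an adducin of the membrane skeleton, had 827 ± 141 CPM and 141 ± 47.3 CPM (log2 fold change -2.56, SE 0.20, adjusted p = 1.19e-08). SYNE1, a nesprin that ties the nucleus to actin, had 1019 ± 214 CPM and 336 ± 48.7 CPM (log2 fold change -1.60, SE 0.17, adjusted p = 1.07e-06). PABPC1, the cytoplasmic poly(A)-binding protein, was called lower by -0.67 on the log2 scale, and its call was lost without pig 2, without pig 3 and without pig 5 (adjusted p = 0.0654 to 0.156).

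Transcription factors of NK cell maturation and residency were split: 5 of 27 tested members were higher in lrNK cells and 7 were lower, a called share of 44.4% against 14.6% of all genes. TBX21, which encodes T-bet, had 969, 1185, 1095, 1303 and 1388 CPM in CD8αhigh liver NK cells and 223, 224, 80.9, 201 and 246 CPM in lrNK cells of pigs 1 to 5. All lrNK levels were lower, that of pig 3 the lowest (log2 fold change -2.60, SE 0.22, adjusted p = 3.26e-08). EOMES, the other T-box factor of NK cells, had 218, 28.0, 62.5, 38.6 and 14.1 CPM in CD8αhigh and 813, 442, 713, 776 and 641 CPM in lrNK cells. The direction was the reverse of that of TBX21 and the populations did not overlap, with the highest CD8αhigh level in pig 1 (log2 fold change 3.24, SE 0.52, adjusted p = 1.49e-04). TBX21 lies on chromosome 12, 23996415 to 24009353 and EOMES on chromosome 13, 14209590 to 14216184.

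ZNF683, the gene of HOBIT, a factor known from resident lymphocytes of mice, was nearly absent from lrNK cells. It had 373, 599.9, 493, 655 and 725 CPM in CD8αhigh cells of pigs 1 to 5 and 7.89, 20.2, 11.2, 1.69 and 3.40 CPM in lrNK cells (log2 fold change -6.11, SE 0.41, adjusted p = 1.56e-09). ZEB2, a repressor that acts with T-bet in terminal NK maturation, had 345, 471, 426, 521 and 643 CPM and 29.1, 50.9, 31.2, 50.8 and 20.6 CPM, again with no overlap (log2 fold change -3.72, SE 0.25, adjusted p = 1.70e-09). Its relative ZEB1 moved the other way, from 38.1 ± 25.4 CPM to 160.2 ± 53.3 CPM (log2 fold change 2.08, SE 0.34, adjusted p = 1.92e-04). ZNF683 shares 597 annotated bases with CRYBG2, which was lower as well (log2 fold change -4.85, adjusted p = 7.11e-05).

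KLF2, which drives expression of exit receptors in lymphocytes, had 631 ± 161 CPM in CD8αhigh and 84.8 ± 75.9 CPM in lrNK cells (log2 fold change -2.90, SE 0.57, adjusted p = 0.00107). Its relative KLF3 had 107 ± 25 CPM and 17.9 ± 12.2 CPM (log2 fold change -2.59, SE 0.35, adjusted p = 1.58e-05). BHLHE40, a stress-responsive factor, was lower by a log2 fold change of -1.54 (adjusted p = 3.70e-04). TOX2, an HMG-box factor of NK development, had 37.6, 3.16, 13.1, 8.96 and 2.63 CPM in CD8αhigh and 299, 140.2, 113, 98.0 and 129 CPM in lrNK cells of pigs 1 to 5 (log2 fold change 3.61, SE 0.55, adjusted p = 7.42e-05). ID3, an inhibitor of E proteins, had 4.91 ± 5.77 CPM and 68.7 ± 23.2 CPM (log2 fold change 3.86, SE 0.70, adjusted p = 4.91e-04). The most abundant members that were not called were IKZF3, with 1739 ± 133 CPM in CD8αhigh and 2028 ± 503 CPM in lrNK cells, and ETS1, with 966 ± 63.9 CPM and 1110.3 ± 117 CPM.

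Receptors for chemokines and sphingosine 1-phosphate were called for 9 of 15 members, 6 higher and 3 lower in lrNK cells, a called share of 60.0% against 14.6% of all genes. CXCR6, the receptor for CXCL16 on sinusoidal endothelium, had 153, 23.2, 46.6, 17.1 and 5.25 CPM in CD8αhigh liver NK cells and 700.2, 607, 86.2, 837 and 729 CPM in lrNK cells of pigs 1 to 5. It was higher in lrNK cells within every pig, but the lrNK level of pig 3 was below the CD8αhigh level of pig 1 (log2 fold change 3.62, SE 0.69, adjusted p = 7.85e-04). The gene lies within FYCO1, which was lower in lrNK cells (log2 fold change -1.29, adjusted p = 1.43e-04). CCR9, a receptor of gut-homing cells, had 0 to 12 counts in CD8αhigh and 29 to 71 counts in lrNK libraries (log2 fold change 4.01, adjusted p = 0.00171). CCR6, a receptor for CCL20, was counted 0 times in all CD8αhigh libraries and 16 to 47 times in lrNK libraries, at least 18.3-fold higher (adjusted p = 2.28e-04). XCR1, a receptor known from dendritic cells, was counted 0 to 1 and 9 to 40 times and called higher (adjusted p = 2.28e-04), and the gene shares 6585 annotated bases with CCR1. CCR6, GPR183 and XCR1 are also known from B cells or dendritic cells, whose markers summed higher in the lrNK libraries (397 to 1114 against 38.8 to 87.4 CPM and 240.0 to 373 against 52.7 to 129 CPM), and the part of those cells was not tested. CCR9, CXCR6 and XCR1 lie within 200.2 kb on chromosome 13.

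The receptors that were lower were CX3CR1, S1PR5 and S1PR4. S1PR5, an exit receptor of mature NK cells, had 430.3, 481, 436, 644 and 555 CPM in CD8αhigh cells and 24.5, 3.84, 10.2, 19.9 and 39.96 CPM in lrNK cells of pigs 1 to 5. No lrNK library reached the lowest CD8αhigh level (log2 fold change -4.64, SE 0.37, adjusted p = 1.13e-08). S1PR4 went from 90.8 ± 10.5 CPM to 20.7 ± 6.51 CPM (log2 fold change -2.14, SE 0.26, adjusted p = 3.89e-06). S1PR1, the exit receptor of lymph nodes, was not called and had 71.7 ± 43.1 CPM and 91.7 ± 30.5 CPM. CXCR3, a receptor for interferon-induced chemokines, was called higher (log2 fold change 1.99, adjusted p = 0.00838), but not without pig 3 (adjusted p = 0.082). GPR183, a receptor for oxysterols, was called higher (log2 fold change 1.71, adjusted p = 0.0146), and lost its call without pig 2 and without pig 3 (adjusted p = 0.0521 to 0.161). The gene shares 16777 annotated bases with UBAC2, which was lower (log2 fold change -1.16, adjusted p = 4.51e-05).

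Of 23 integrins and proteins that link them to actin, 10 were lower in lrNK cells, 2 were higher and 11 were not called (7.68% of all genes were lower and 6.96% higher), with a median log2 fold change of -0.46. VCL, vinculin, had 394, 599, 609, 669 and 587 CPM in CD8αhigh cells and 46.5, 57.1, 30.7, 78.6 and 23.5 CPM in lrNK cells of pigs 1 to 5 (log2 fold change -3.59, SE 0.26, adjusted p = 5.08e-09). ITGA1, the collagen-binding integrin subunit CD49a that marks resident NK cells of mice, had 178, 328, 317, 426 and 325 CPM in CD8αhigh cells and 77.2, 60.0, 108, 82.8 and 128 CPM in lrNK cells. It was lower in lrNK cells of every pig and the populations did not overlap (log2 fold change -1.79, SE 0.24, adjusted p = 2.13e-05). The gene shares 15850 annotated bases with PELO, which was also lower (log2 fold change -1.26, adjusted p = 8.15e-04). ITGB7 (log2 fold change -1.88, adjusted p = 2.84e-04), ITGA4 (log2 fold change -0.83, adjusted p = 5.39e-04) and ITGAM, which encodes CD11b (log2 fold change -0.99, adjusted p = 0.00101), were lower too. ITGA5, the fibronectin receptor subunit, had 25 to 69 counts in CD8αhigh and 0 to 2 counts in lrNK libraries and was called lower (adjusted p = 7.20e-05). TLN2, a talin, had 12.5 ± 7.85 CPM in CD8αhigh and 0.582 ± 0.870 CPM in lrNK cells (log2 fold change -4.60, adjusted p = 4.55e-04). TLN1 and ITGB1 were not called, with ITGB1 at 668 ± 172 CPM in CD8αhigh and 938 ± 306 CPM in lrNK cells. ITGAD, the CD11d subunit, was counted 3, 3, 0, 3 and 2 times in CD8αhigh and 19, 32, 2, 51 and 9 times in lrNK libraries of pigs 1 to 5, so that the populations overlapped. It was called higher (log2 fold change 3.80, adjusted p = 0.00459), but not without the lrNK libraries of pigs 2 and 4, which held the most B cell markers (log2 fold change 2.67, adjusted p = 0.101). In that setting 20 of the 252 named genes lost their call, and the part of B cells was not tested.

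Of other adhesion proteins, 2 of 15 were higher in lrNK cells and 3 were lower, a called share of 33.3% against 14.6% of all genes. SPN, the sialomucin CD43, had 1135, 1461, 1467, 1544 and 1358 CPM in CD8αhigh cells and 199, 293, 416, 297 and 306 CPM in lrNK cells of pigs 1 to 5 (log2 fold change -2.21, SE 0.17, adjusted p = 7.37e-09). SELPLG, the selectin ligand PSGL-1, had 239 ± 20.9 CPM and 34.6 ± 18.8 CPM (log2 fold change -2.81, SE 0.29, adjusted p = 4.83e-07), and CD44, a hyaluronan receptor, had 482 ± 39.9 CPM and 303 ± 27.2 CPM (log2 fold change -0.67, SE 0.13, adjusted p = 9.61e-04). The populations did not overlap for any of these 3 genes. ALCAM, the ligand of CD6, was higher, with 39.4 ± 16.7 CPM in lrNK and 8.94 ± 5.31 CPM in CD8αhigh cells (log2 fold change 2.15, SE 0.49, adjusted p = 0.0041). JAML was called higher (log2 fold change 2.16, adjusted p = 0.0466) and lost its call without pig 1, without pig 2, without pig 3 and without pig 5 (adjusted p = 0.0623 to 0.169). The gene shares 1281 annotated bases with MPZL3, which was also higher (log2 fold change 2.91, adjusted p = 9.89e-04).

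S100 proteins and annexins, calcium-binding proteins at the membrane and cytoskeleton, had 9 of 14 members lower and 0 higher in lrNK cells, with a median log2 fold change of -1.72, against 0.02 for all genes, a centre that the normalization itself sets near 0 (of all genes 7.68% were lower and 6.96% higher). None was called higher by DESeq2 either, and 1 was higher at an unadjusted p under 0.05. S100A6 had 305, 389, 437, 412 and 551 CPM in CD8αhigh and 4.15, 12, 15.6, 7.02 and 3.66 CPM in lrNK cells of pigs 1 to 5 (log2 fold change -5.69, SE 0.31, adjusted p = 9.16e-11). S100A1 had 155 ± 66.4 CPM and 15.7 ± 6.01 CPM (log2 fold change -3.30, SE 0.30, adjusted p = 9.98e-08), and S100A13 had 40.1 ± 9.95 CPM and 7.04 ± 4.82 CPM (log2 fold change -2.49, SE 0.37, adjusted p = 6.03e-05). S100A1 and S100A13 share 5026 annotated bases, so their counts are uncertain, and together with S100A4 and S100A6 they lie within 92.7 kb on chromosome 4. S100A10 had 595 ± 78.3 CPM and 213 ± 54.3 CPM (log2 fold change -1.48, adjusted p = 1.96e-06), and its partner ANXA2 had 92.0 ± 24.6 CPM and 18.1 ± 10.1 CPM (log2 fold change -2.37, adjusted p = 1.92e-05). ANXA5 and ANXA11 were not called, with ANXA11 at 301 ± 29.9 CPM in CD8αhigh and 367 ± 103 CPM in lrNK cells.

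Regulators of actin were lower for 11 and higher for 3 of 40 members, where 7.68% of all genes were lower and 6.96% higher. FLNA, the actin cross-linker filamin A, had 808, 970.4, 1062, 1010.5 and 1033 CPM in CD8αhigh cells and 117, 167, 464, 103 and 157 CPM in lrNK cells of pigs 1 to 5 (log2 fold change -2.28, SE 0.30, adjusted p = 1.17e-05). SVIL, supervillin, had 169 ± 32.5 CPM and 20.9 ± 6.03 CPM (log2 fold change -3.02, SE 0.20, adjusted p = 1.49e-09), and MYO1F, a class I myosin, had 96.3 ± 10.4 CPM and 17.8 ± 4.86 CPM (log2 fold change -2.43, SE 0.21, adjusted p = 3.78e-08). MSN, moesin, which links actin to the membrane, had 753 ± 51.5 CPM and 343 ± 35.5 CPM (log2 fold change -1.14, SE 0.15, adjusted p = 1.96e-05). Actin itself was not called: ACTB had 8186 ± 356 CPM in CD8αhigh and 8972 ± 3865 CPM in lrNK cells, and TMSB4X, thymosin beta 4, had 9957 ± 664 CPM and 8104 ± 4249.6 CPM.

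Semaphorins and their plexin and neuropilin receptors had 3 of 11 members higher and 2 lower, a called share of 45.5% against 14.6% of all genes. SEMA7A, the membrane-bound ligand of PLXNC1, had 45.6, 7.12, 12.8, 7.76 and 3.34 CPM in CD8αhigh cells and 67.7, 121, 102, 156 and 216 CPM in lrNK cells of pigs 1 to 5 (log2 fold change 3.15, SE 0.55, adjusted p = 3.47e-04). Receptor and ligand were thus both higher, with no overlap for either. NRP1, a co-receptor for class 3 semaphorins and VEGF, had 24.2, 0, 3.07, 13.1 and 0.239 CPM and 81.0, 37.9, 37.0, 132 and 71.0 CPM (log2 fold change 3.17, SE 0.79, adjusted p = 0.00799). SEMA4D, the CD100 semaphorin of lymphocytes, had 356, 305, 301, 461 and 389 CPM in CD8αhigh and 27.4, 25.9, 3.90, 20.2 and 21.7 CPM in lrNK cells, the lowest in pig 3 (log2 fold change -4.18, SE 0.31, adjusted p = 6.85e-09). PLXND1 was not called (log2 fold change -0.75, adjusted p = 0.0896) but passed once the pig was a block in the fit (adjusted p = 0.0385).

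Receptors for lipids, nucleotides and hormones had 15 of 28 members lower and 3 higher in lrNK cells, with a median log2 fold change of -1.31 (7.68% of all genes were lower and 6.96% higher). PTAFR, the receptor for platelet-activating factor, had 309, 449, 442, 437 and 528 CPM in CD8αhigh cells and 2.08, 0.960, 0, 3.09 and 8.88 CPM in lrNK cells of pigs 1 to 5 (log2 fold change -6.95, SE 0.43, adjusted p = 4.81e-10). PTH1R, the parathyroid hormone receptor, had 169.6, 206, 224, 277 and 248 CPM and 5.81, 0, 0.487, 1.404 and 1.57 CPM (log2 fold change -6.88, SE 0.38, adjusted p = 1.02e-10). For both genes the highest lrNK level was far under the lowest CD8αhigh level. P2RY1, a receptor for ADP, had 43.6 ± 20.9 CPM and 2.60 ± 3.10 CPM (log2 fold change -4.21, SE 0.62, adjusted p = 5.59e-05). The prostaglandin E2 receptors moved apart: PTGER4 was lower, with 432 ± 52.7 CPM in CD8αhigh and 102 ± 21.4 CPM in lrNK cells (log2 fold change -2.09, SE 0.16, adjusted p = 6.85e-09), and PTGER3 was higher, with 100.2 ± 12.8 CPM and 263 ± 72.3 CPM (log2 fold change 1.39, SE 0.24, adjusted p = 2.75e-04). GPR55 was lower (log2 fold change -2.36, adjusted p = 7.82e-09). LPAR6, a receptor for lysophosphatidic acid, was higher (log2 fold change 1.86, adjusted p = 5.33e-04), and so was P2RY11, a receptor for ATP (log2 fold change 3.59, adjusted p = 0.00596). LPAR6 shares 4609 annotated bases with RB1, which was also higher (log2 fold change 1.35, adjusted p = 4.45e-04).

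Regulators of G proteins and of Ras were called in both directions, 6 of 18 higher and 5 lower (14.6% of all genes were called). Without pig 5, 7 members were called in all, and the calls over all genes fell from 1601 to 1051. RASA3, which inactivates Ras and Rap1, had 413, 474, 523, 575 and 578 CPM in CD8αhigh and 46.9, 72.0, 43.8, 88.5 and 25.1 CPM in lrNK cells of pigs 1 to 5 (log2 fold change -3.21, SE 0.25, adjusted p = 7.82e-09). It shares 1233 bases with LOC110255870, a non-coding gene with the same pattern (log2 fold change -3.24, adjusted p = 1.08e-08). RASGRP2, an exchange factor for Rap1, had 137 ± 30.0 CPM and 34.8 ± 23.9 CPM (log2 fold change -1.98, SE 0.38, adjusted p = 8.59e-04). RGS19 had 223 ± 29.5 CPM and 47.5 ± 20.3 CPM (log2 fold change -2.23, SE 0.24, adjusted p = 8.50e-07), while RGS1, which dampens chemokine signals, had 155 ± 77.7 CPM and 499 ± 301 CPM (log2 fold change 1.68, SE 0.40, adjusted p = 0.00593). RASGRP3, an exchange factor of B cells, was counted 0 times in all CD8αhigh libraries and 23 to 72 times in lrNK libraries, at least 23.2-fold higher (adjusted p = 4.16e-05).

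Lytic granule genes were split by member rather than shifted together, with 8 of 26 higher, 6 lower and a median log2 fold change of -0.07 (6.96% of all genes were higher and 7.68% lower). Without pig 4, and likewise without pig 5, 9 members in all were called. Over all genes these fits called 1227 and 1051, against 1601 with all pigs. GNLY, the pore-forming peptide granulysin, had 929.6, 1934, 1219.5, 1309 and 1487 CPM in CD8αhigh cells and 14.5, 10.6, 21.4, 2.25 and 58.8 CPM in lrNK cells of pigs 1 to 5 (log2 fold change -5.96, SE 0.52, adjusted p = 4.54e-08). No lrNK library came near the CD8αhigh levels. PRF1, perforin, was not called and had 333 ± 36.6 CPM and 318 ± 149 CPM, and CTSW, a cathepsin of cytotoxic cells, had 535 ± 54.0 CPM and 617 ± 172 CPM.

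Granzymes, the serine proteases of the granule, went in both directions. GZMB had 185, 137, 106, 267 and 220.0 CPM in CD8αhigh and 38.6, 13.4, 3.41, 65.2 and 43.9 CPM in lrNK cells of pigs 1 to 5, lower in each pig and without overlap (log2 fold change -2.44, SE 0.49, adjusted p = 0.00122). GZMH had 227, 259, 625, 14.5 and 324 CPM and 9.55, 2.88, 16.6, 0 and 2.35 CPM, with a low CD8αhigh level in pig 4 (log2 fold change -5.66, SE 0.94, adjusted p = 1.90e-04). GZMK had 3.45, 1.58, 1.95, 4.14 and 0 CPM and 22.4, 53.8, 19.0, 73.6 and 59.8 CPM, so that it stayed at a few CPM in CD8αhigh cells (log2 fold change 4.33, SE 0.67, adjusted p = 9.75e-05). GZMA had 1082, 571, 354, 364 and 138 CPM and 951, 1299, 1801, 1815 and 1913 CPM, higher in lrNK cells of all pigs but pig 1 (log2 fold change 1.63, SE 0.41, adjusted p = 0.00849), and its call was lost without pig 4 (adjusted p = 0.0618). The granzymes that were higher, GZMA and GZMK, lie 36.4 kb apart on chromosome 16, and GZMB and GZMH, both lower, lie 15 kb apart on chromosome 7. GZMB and GZMH are close paralogs, so reads may have been split between them.

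LYST, which controls the size and traffic of lytic granules, had the largest gain in transcript number of the list. It had 346, 123, 111, 124 and 115 CPM in CD8αhigh cells and 1271, 1137, 1613, 1101 and 1158 CPM in lrNK cells of pigs 1 to 5 (log2 fold change 2.94, SE 0.33, adjusted p = 1.45e-06). SRGN, serglycin, the proteoglycan core of the granule, had 199 ± 73.1 CPM and 512 ± 69.2 CPM (log2 fold change 1.37, SE 0.24, adjusted p = 3.29e-04). SERPINB9, an inhibitor of granzyme B, had 9.97 ± 3.63 CPM and 1.35 ± 1.25 CPM (log2 fold change -2.84, adjusted p = 0.00718), and was not called in the liver libraries alone with the pig blocked (adjusted p = 0.0535).

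NK receptors and their adaptors had 9 of 25 members higher in lrNK cells and 5 lower, a called share of 56.0% against 14.6% of all genes. NCR1, the activating receptor NKp46, had 167, 40.6, 34.9, 19.8 and 11.2 CPM in CD8αhigh and 356, 248, 156, 297 and 353 CPM in lrNK cells of pigs 1 to 5. It was higher in lrNK cells within each pig, with pig 1 the highest CD8αhigh library and pig 3 the lowest lrNK library (log2 fold change 2.39, SE 0.52, adjusted p = 0.00287). KLRF1, the activating receptor NKp80, had 33.8, 10.02, 10.3, 4.14 and 3.10 CPM and 106, 111, 63.8, 139 and 164 CPM, without overlap (log2 fold change 3.29, SE 0.50, adjusted p = 7.13e-05). KLRB1, a lectin-like receptor, had 687, 334, 349.6, 387 and 239.8 CPM and 1544, 1089, 193, 2316 and 1793 CPM and was higher in lrNK cells of all pigs but pig 3 (log2 fold change 1.80, SE 0.41, adjusted p = 0.00395). CD96, a nectin-family receptor, was higher as well (log2 fold change 1.77, adjusted p = 3.83e-06), and so was SH2D1B, the SLAM adaptor EAT-2 (log2 fold change 1.58, adjusted p = 0.00251). SH2D1B shares 562 annotated bases with C4H1orf226, which was also higher (log2 fold change 1.52, adjusted p = 0.0024).

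KLRG1, an inhibitory receptor for cadherins and a sign of terminal maturation, had 252, 335, 378, 286 and 413 CPM in CD8αhigh cells and 8.72, 7.20, 8.77, 1.69 and 2.87 CPM in lrNK cells of pigs 1 to 5 (log2 fold change -5.92, SE 0.33, adjusted p = 1.02e-10). CD226, the activating receptor DNAM-1, had 143 ± 32.6 CPM and 15.7 ± 8.38 CPM (log2 fold change -3.19, SE 0.29, adjusted p = 9.98e-08), and NCR3, the receptor NKp30, had 41.1 ± 17.4 CPM and 6.07 ± 4.41 CPM (log2 fold change -2.82, SE 0.46, adjusted p = 1.87e-04). The natural cytotoxicity receptors NCR1 and NCR3 thus moved in opposite directions. FCGR3A, the Fc receptor CD16, had 776 ± 132 CPM and 340.1 ± 159.7 CPM (log2 fold change -1.19, SE 0.25, adjusted p = 0.00197), and LY9, a SLAM-family receptor, was lower by a log2 fold change of -1.05 (adjusted p = 5.20e-04). KLRK1, which encodes NKG2D, was not called and had 919 ± 326 CPM in CD8αhigh and 606 ± 419 CPM in lrNK cells.

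A pair of uncharacterized protein-coding genes next to KLRK1 were among the largest gains in transcript number of called genes. LOC102165642, on chromosome 5, 61583868 to 61596985, had 513, 109, 159, 464 and 194 CPM in CD8αhigh and 2054, 1057, 807, 2078 and 2747 CPM in lrNK cells of pigs 1 to 5 (log2 fold change 2.60, SE 0.47, adjusted p = 4.72e-04). LOC100523789, on chromosome 5, 61621869 to 61633693, had 1106, 619, 716, 743 and 451 CPM and 1736, 1334, 1226, 1779 and 1311 CPM (log2 fold change 1.02, SE 0.21, adjusted p = 0.00127). With KLRK1, KLRF1, KLRB1 and KLRG1 they lie in 940.1 kb of chromosome 5, where neighbouring genes thus went up, went down or were not called.

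Receptors for cytokines, with Janus kinases and SOCS inhibitors, had 8 of 32 members higher and 6 lower (14.6% of all genes were called). Without pig 2, 9 members were called in all, and the calls over all genes fell from 1601 to 1197. Both chains of the interleukin-18 receptor were higher. IL18R1 had 141, 24, 33.7, 10.2 and 9.31 CPM in CD8αhigh cells and 475, 159, 326, 235 and 335 CPM in lrNK cells of pigs 1 to 5 (log2 fold change 2.84, SE 0.56, adjusted p = 0.00112), and IL18RAP had 13 ± 11.7 CPM and 81.3 ± 20.1 CPM (log2 fold change 2.67, SE 0.65, adjusted p = 0.00688). IL1RL1, the receptor for interleukin-33, had 6.91, 4.22, 1.12, 0 and 1.91 CPM and 31.1, 12.5, 66.2, 47.7 and 42.1 CPM, also without overlap (log2 fold change 3.87, SE 0.72, adjusted p = 6.53e-04). The chains of the TGF-beta receptor, both kinases, moved apart: TGFBR1 had 21.9 ± 6.77 CPM and 86.3 ± 21.6 CPM (log2 fold change 1.98, SE 0.31, adjusted p = 1.11e-04), and TGFBR2 was called lower, with 308 ± 59.4 CPM and 187 ± 30.0 CPM (log2 fold change -0.72, SE 0.19, adjusted p = 0.0108), a call lost without pig 2 and without pig 4 (adjusted p = 0.0513 to 0.0578). IFNAR2, a chain of the type I interferon receptor, had 80.4 ± 38.9 CPM and 203 ± 25.6 CPM (log2 fold change 1.34, SE 0.23, adjusted p = 3.23e-04). SOCS2, a feedback inhibitor of cytokine signals, was lower, with 28.9 ± 9.86 CPM and 6.35 ± 4.71 CPM (log2 fold change -2.14, SE 0.50, adjusted p = 0.00515). IL2RB, the shared chain of the interleukin-2 and interleukin-15 receptors, was not called and had 1937 ± 292 CPM and 3029 ± 1995 CPM.

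Of cytokines and death ligands, 4 of 16 were higher in lrNK cells and 0 lower by edgeR or DESeq2, with 3 lower at an unadjusted p under 0.05, where 6.96% of all genes were higher and 7.68% lower. TNFSF14, the ligand LIGHT, had 20.03, 6.86, 19.2, 13.3 and 7.64 CPM in CD8αhigh cells and 73.5, 56.6, 62.4, 52.2 and 43.6 CPM in lrNK cells of pigs 1 to 5 (log2 fold change 2.11, SE 0.33, adjusted p = 1.02e-04). TNFSF4, OX40 ligand, had 16.6, 11, 25.9, 5.52 and 13.4 CPM and 35.7, 61.0, 67.7, 73.3 and 42.1 CPM (log2 fold change 1.96, SE 0.38, adjusted p = 0.00104). IL16, a chemoattractant for CD4+ cells, had 152 ± 49.5 CPM and 412 ± 116 CPM (log2 fold change 1.44, SE 0.23, adjusted p = 1.64e-04). Levels of these 3 genes did not overlap. TNFSF10, which encodes TRAIL, a death ligand known from liver NK cells of mice, was called higher (log2 fold change 0.73, adjusted p = 0.0365) and lost its call without pig 1, without pig 2, without pig 4 and without pig 5 (adjusted p = 0.0673 to 0.134). CCL5 was abundant in both, at 1850.3 ± 213 CPM and 1939 ± 612 CPM, and was not called.

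FAS, the death receptor, had 17.7 ± 5.91 CPM in CD8αhigh and 68.6 ± 16.8 CPM in lrNK cells (log2 fold change 1.96, SE 0.33, adjusted p = 2.53e-04). Of the BCL2 family, which sets the threshold of apoptosis, 2 of 14 members were higher and 2 lower, a called share of 28.6% against 14.6% of all genes. The pro-apoptotic BBC3 (PUMA) had 169, 144, 227, 105 and 193 CPM in CD8αhigh and 27.4, 19.2, 9.74, 12.9 and 10.4 CPM in lrNK cells of pigs 1 to 5 (log2 fold change -3.40, SE 0.30, adjusted p = 4.88e-08). BCL2L11 (BIM), also pro-apoptotic, was lower (log2 fold change -1.06, adjusted p = 0.00515), and the pro-apoptotic BMF was higher, with 10.3 ± 5.04 CPM and 73.4 ± 42.7 CPM (log2 fold change 2.85, SE 0.40, adjusted p = 3.38e-05). MCL1, which is pro-survival, was higher (log2 fold change 0.78, adjusted p = 0.00136), and BCL2 was not called.

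Genes induced by interferons were higher for 16 of 33 members and lower for 0 by edgeR, with a median log2 fold change of 1.23, where 6.96% of all genes were higher and 7.68% lower. At an unadjusted p under 0.05, and by DESeq2, 1 member was lower, and GBP1, a guanylate-binding protein, was called lower in the fit blocked by pig (log2 fold change -0.49, adjusted p = 0.0317). IFI6 had 44.5, 43.2, 17.8, 21.4 and 2.87 CPM in CD8αhigh cells and 113, 358, 75.5, 396 and 168 CPM in lrNK cells of pigs 1 to 5 (log2 fold change 3.11, SE 0.54, adjusted p = 3.23e-04). MX1, a GTPase against RNA viruses, had 35.9, 43.8, 18.4, 17.8 and 4.78 CPM and 76.4, 495, 49.7, 295 and 72.1 CPM (log2 fold change 3.04, SE 0.61, adjusted p = 0.00119), and IFIT3 had 21.9 ± 8.32 CPM and 89.2 ± 57.1 CPM (log2 fold change 2.03, SE 0.42, adjusted p = 0.00145). The highest lrNK levels of MX1 and IFI6 were those of pigs 2 and 4, and without these libraries MX1 was not called (log2 fold change 1.46, adjusted p = 0.0642). ISG20, an exonuclease, had 3.80, 6.06, 0.836, 0 and 0 CPM and 21.6, 62.4, 2.92, 43.0 and 54.3 CPM (log2 fold change 4.15, SE 0.95, adjusted p = 0.00599). Summed over the list, lrNK libraries of pigs 1 to 5 held 3879, 5940.4, 3991, 5097 and 4448 CPM and CD8αhigh libraries 3553, 3716, 3117, 3246 and 2901 CPM. The difference was smallest in pig 1 and largest in pigs 2, 4 and 5. Without the lrNK libraries of pigs 2 and 4, 11 members were called, and the calls over all genes went from 1601 to 1471.

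MHC class II genes, which present antigen to CD4+ T cells, had 9 of 15 members higher in lrNK cells, and 0 lower by edgeR, by DESeq2 or at an unadjusted p under 0.05, beside 6.96% higher and 7.68% lower of all genes. SLA-DRA had 166, 289, 191, 149 and 168 CPM in CD8αhigh cells and 768, 1053, 568, 882 and 348 CPM in lrNK cells of pigs 1 to 5 (log2 fold change 1.91, SE 0.25, adjusted p = 1.43e-05). CD74, the invariant chain, had 29.0, 10.5, 30.9, 14.3 and 16 CPM and 54.8, 82.1, 83.8, 99.1 and 54.8 CPM (log2 fold change 1.90, SE 0.29, adjusted p = 7.68e-05), and SLA-DOB, known mainly from B cells, had 1.96 ± 1.56 CPM and 40.1 ± 29.1 CPM (log2 fold change 4.38, SE 0.77, adjusted p = 3.45e-04). SLA-DQB1 was not called (log2 fold change 1.48, adjusted p = 0.0814) but passed once blocked by pig (adjusted p = 0.00893). CIITA, the master regulator of these genes, and RFXAP were not called. Summed over the list, the lrNK libraries of pigs 1 to 5 held 1912, 3043, 1693, 2814 and 1364 CPM and the CD8αhigh libraries 878, 1058, 804, 711 and 745 CPM.

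Markers of B cells went the same way in the lrNK libraries. Of 11 tested markers, 10 were higher and 0 lower by edgeR, by DESeq2 or at an unadjusted p under 0.05, with a median log2 fold change of 4.75, against 6.96% higher and 7.68% lower among all genes. BLK was not called. MS4A1 had 23.5, 9.76, 3.07, 1.21 and 0 CPM in CD8αhigh cells and 239, 313, 152, 475 and 156 CPM in lrNK cells of pigs 1 to 5 (log2 fold change 5.25, SE 0.74, adjusted p = 3.07e-05). All B cell markers together summed to 87.4, 55.9, 38.8, 47.4 and 44.9 CPM and 678, 1114, 412, 1081 and 397 CPM in the same order, so their pig order in lrNK cells was that of the MHC class II sum. Plasma cell markers summed to 24.5, 30.3, 21.5, 17.6 and 18.9 CPM in CD8αhigh libraries and 103, 445, 471, 382 and 234 CPM in lrNK libraries, most of it JCHAIN (log2 fold change 4.57, SE 0.54, adjusted p = 3.14e-06). B cells are known to express MHC class II and interferon-induced genes, and the part of these markers in the results of both lists was not tested. Without the lrNK libraries of pigs 2 and 4, 7 members of the MHC class II list and 8 B cell markers were called. The calls over all genes went from 1601 to 1471. Those libraries were chosen after the data were seen, for their high sums of B cell markers. These counts therefore do not test the part of B cells.

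**Figure D3:**
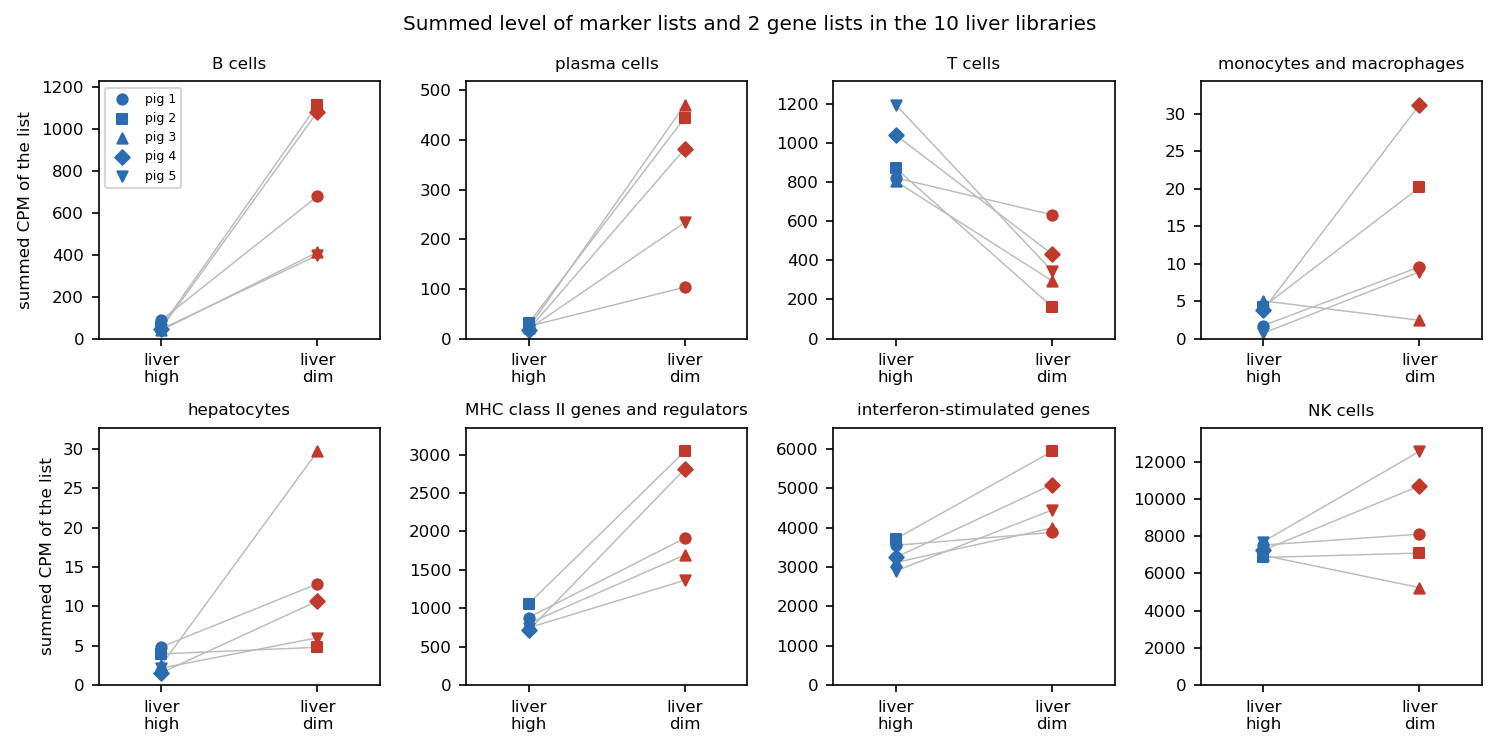
Summed level in CPM (y axis, from 0) of 6 lists of cell type markers, of the MHC class II list and of the interferon-stimulated list in CD8α high (blue) and CD8α dim (red) liver NK cells, 1 symbol for each of the 5 pigs. B cell markers ran from 397 to 1114 CPM in lrNK cells with pigs 2 and 4 at the top, the same 2 pigs that led the MHC class II and interferon-stimulated sums, while NK cell markers did not separate the populations.

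Markers of other cells were looked at likewise. Dendritic cell markers summed to 240.0 to 373 CPM in lrNK and 52.7 to 129 CPM in CD8αhigh libraries, mostly IRF8, which NK cells and B cells express too and which had 232 ± 55.7 CPM and 70.3 ± 27.6 CPM (log2 fold change 1.73, adjusted p = 1.51e-04). Markers of monocytes and macrophages summed to 2.44 to 31.2 CPM and 0.717 to 5.02 CPM. Of markers of other innate lymphoid cells IL1RL1 was called, and KIT, with 26.2 ± 32.4 CPM in lrNK and 5.30 ± 3.06 CPM in CD8αhigh cells, and GATA3, with 259 ± 63.8 CPM and 201 ± 46.0 CPM, were not. KIT was called higher by DESeq2, after thinning, without a filter and without pig 1 (adjusted p = 0.0146 to 0.0446). Of 15 NK cell markers 4 were higher and 3 lower, and those lower include CD8A, which the sort fixed. T cell markers were lower in lrNK libraries, through CD3G, which had 711, 755, 709.8, 882 and 1064 CPM in CD8αhigh and 586, 104, 109, 369.9 and 276 CPM in lrNK cells of pigs 1 to 5 (log2 fold change -1.51, SE 0.34, adjusted p = 0.00374). With the pig as a block CD3E was called lower as well (adjusted p = 0.0418), from 0 to 95 counts per CD8αhigh library and 0 to 24 per lrNK library.

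Immediate early, heat shock and cold-inducible genes, which respond to handling of cells, were called at 24.4% against 14.6% of all genes: 3 of 45 were higher in lrNK cells and 8 lower. Without pig 5, 6 members were called in all, and the calls over all genes fell from 1601 to 1051. NR4A3, an orphan nuclear receptor induced by receptor signals, had 261, 114, 187, 275 and 273 CPM in CD8αhigh cells and 9.55, 1.92, 6.33, 0 and 2.87 CPM in lrNK cells of pigs 1 to 5 (log2 fold change -5.83, SE 0.52, adjusted p = 6.82e-08). BAG3, a co-chaperone, was lower, with 42.6 ± 18.4 CPM and 3.60 ± 4.39 CPM (log2 fold change -3.62, SE 0.57, adjusted p = 1.23e-04), and DUSP5, a phosphatase of ERK, was higher, with 11.5 ± 4.77 CPM and 63.5 ± 9.07 CPM (log2 fold change 2.48, SE 0.30, adjusted p = 5.70e-06). HSPA8 and BTG1, the most abundant members, were not called.

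Between liver and blood CD8αhigh NK cells 7 genes were called (0.064% of those tested), and between lrNK and blood NK cells 1993 (18.2%). These comparisons share libraries with the one within the liver. The contrast of liver with blood CD8αhigh cells is also the exact difference between the lrNK contrast against blood and that within the liver. Of all genes called, 241 were called within the liver and not against blood, and 633 against blood and not within the liver. CXCR6 was 1 of the 7 genes, with 0, 0.548, 4.88, 0.361 and 2.05 CPM in blood of pigs 1 to 5 (liver CD8αhigh over blood, log2 fold change 4.88, adjusted p = 0.036). This call was lost in 8 of 16 alternatives, with log2 fold changes of 3.47 to 6.05 and an adjusted p of up to 0.413, and the value without pig 1 was 3.47. EGR3 (log2 fold change 3.54) and NR4A2 (2.13), both immediate early genes, and HSPA8 (1.15), a heat shock protein, were higher in liver than in blood CD8αhigh cells, and CIRBP (-1.06), a cold-inducible protein, and LOC106510428 (-3.59), which overlaps BTG1, were lower. None of these 5 was called between lrNK and CD8αhigh liver NK cells. CKS2, a cell cycle protein, was higher in CD8αhigh liver cells than in blood (1.43) and lower in lrNK than in CD8αhigh liver NK cells (log2 fold change -0.79, adjusted p = 0.0117), the latter not called without pig 2 (adjusted p = 0.0996). By DESeq2, 22 genes were called between liver and blood CD8αhigh cells, and without pig 2 edgeR called 0.

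**Figure D4:**
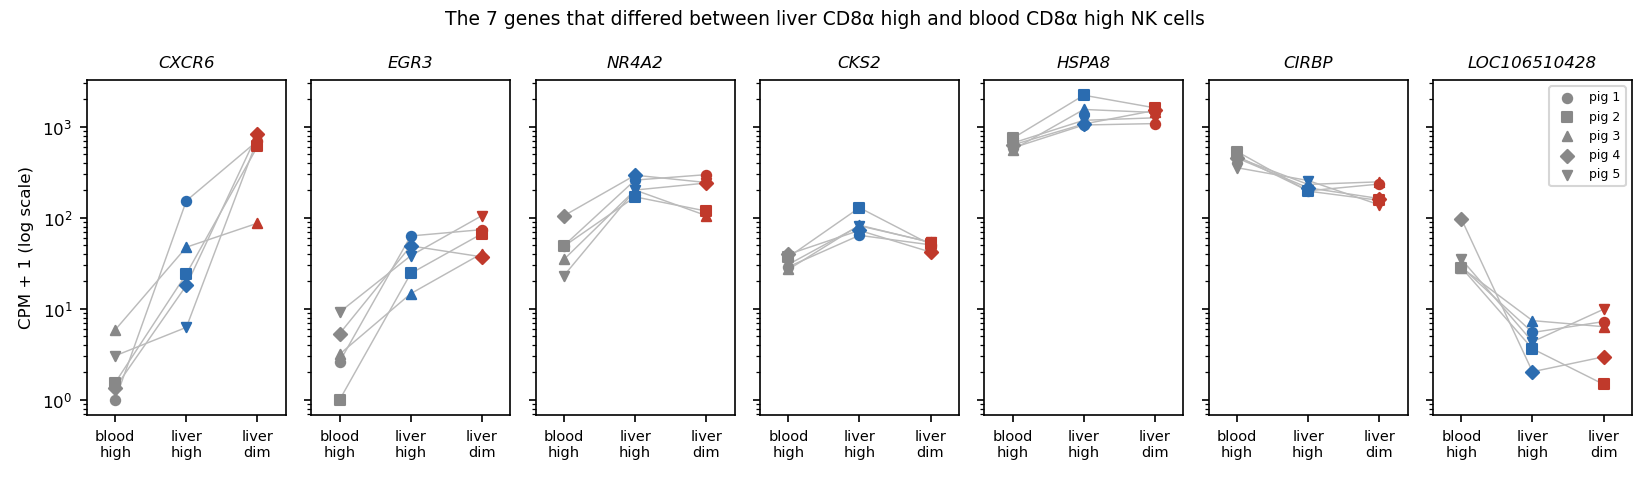
Levels in CPM + 1 (log scale, y axis) of the 7 genes called between liver and blood CD8α high NK cells, in blood CD8α high (grey), liver CD8α high (blue) and liver CD8α dim cells (red), with 1 symbol for each of the 5 pigs and lines joining libraries of a pig. Blue and red points lie on the same side of the grey points for all 7 genes, and they overlap for all but CKS2.

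Housekeeping groups had shares of called genes near or below that of all genes. Of 77 cytosolic ribosomal protein genes 1 was called, higher in lrNK cells, with a median log2 fold change of 0.02. That gene was RPLP0, not called without pig 4 (adjusted p = 0.0649). Without the lrNK libraries of pigs 2 and 4, 8 of the list were called, where 1471 genes were called over all. Of 13 mitochondrially encoded genes 1 was called, COX1 (log2 fold change 0.42, adjusted p = 0.0431), which lost its call without pig 1, without pig 2, without pig 4 and without pig 5 (adjusted p = 0.0812 to 0.148), and 3 were called with the pig as a block. Cell cycle genes were called for 1 higher and 3 lower of 43, a share of 9.30% and below that of all genes. STMN1, a microtubule regulator, was the clearest, with 321 ± 57.3 CPM in CD8αhigh and 138 ± 42.7 CPM in lrNK cells (log2 fold change -1.22, SE 0.22, adjusted p = 4.94e-04). For glycolysis and nutrient transport 4 of 24 were lower, among them SLC38A2, a glutamine transporter (log2 fold change -0.63, adjusted p = 0.00185). Without pig 2, 1 was called, and the calls over all genes fell from 1601 to 1197. Of 7 GIMAP GTPases, regulators of lymphocyte survival, GIMAP4 was higher, with 224 ± 44.3 CPM and 537 ± 94.8 CPM (log2 fold change 1.26, SE 0.16, adjusted p = 7.33e-06), and shares 5759 bases with GIMAP7, which was not called.

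**Figure D5:**
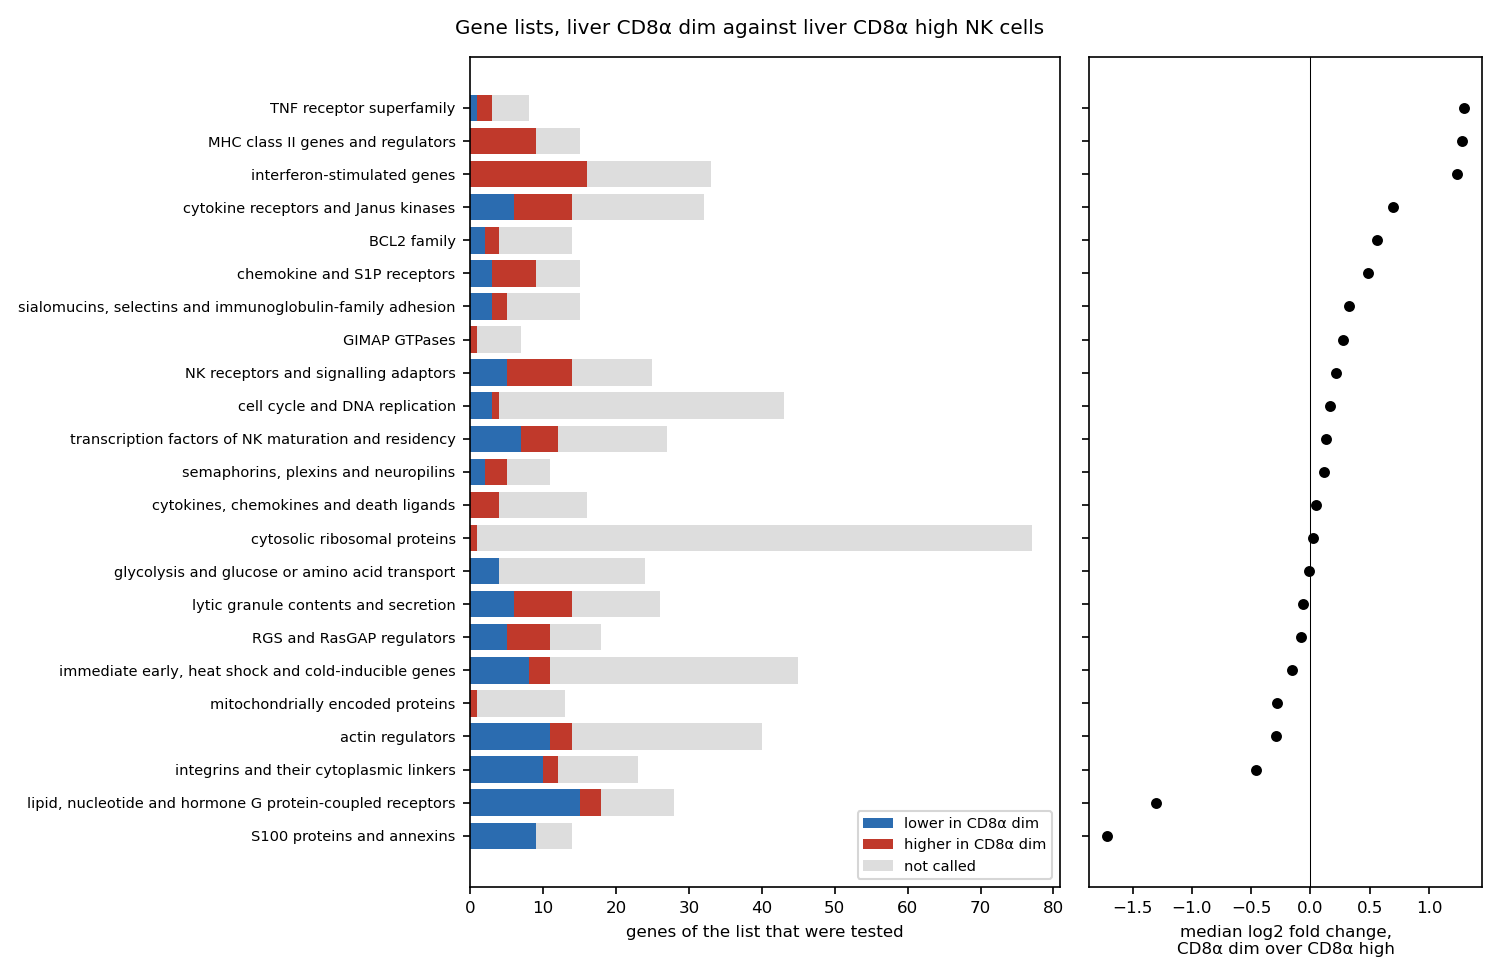
Left, number of tested members of each of 23 gene lists (x axis) that were called lower (blue), called higher (red) or not called (grey) in CD8α dim against CD8α high liver NK cells; right, the median log2 fold change over the tested members (x axis, black points), with the line at 0. S100 proteins and annexins have the lowest median (-1.72), and interferon-stimulated and MHC class II genes have medians above 1 with 0 members lower.

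Some genes were detected in 1 liver population alone, which was taken as at least 20 counts in all 5 libraries of it and at most 3 counts in each library of the other. For 5 genes that population was lrNK cells and for 14 it was CD8αhigh cells. SPIB, a transcription factor of B cells and plasmacytoid dendritic cells, was counted 48 to 115 times in lrNK and 0 to 3 times in CD8αhigh libraries. In the same order SCIMP, an adaptor of MHC class II signalling, had 31 to 138 against 0 to 1 counts, CFD, complement factor D, had 21 to 123 against 0 to 2 counts, and AFDN, the junction protein afadin, had 24 to 42 against 0 to 2 counts. The fifth was RASGRP3. SPIB, SCIMP and RASGRP3 are known from B cells, whose markers were higher in the same libraries, and the part of those cells was not tested.

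Of the 14 genes detected in CD8αhigh liver NK cells alone, LOC100510904 was the most abundant, counted 144 to 357 times against 0 to 1 times. EXOC3L2, an exocyst-related protein, had 92 to 366 against 0 to 2 counts and MYO1E, a class I myosin, had 81 to 212 against 0 to 2 counts. RET, the receptor tyrosine kinase for GDNF ligands, was counted 72 to 237 times in CD8αhigh and 0 to 2 times in lrNK libraries. HNF4A, a nuclear receptor best known from hepatocytes, had 42 to 144 against 0 to 1 counts. It was present in blood CD8αhigh NK cells as well, at 10.9 to 21.4 CPM, and hepatocyte markers summed to at most 4.83 CPM in CD8αhigh liver libraries. OCA2, a melanosome transporter, had 50 to 223 against 0 to 1 counts, ABLIM3, an actin-binding protein, had 31 to 173 against 0 to 1 counts, and SHB, an adaptor protein, had 48 to 124 against 0 to 1 counts.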

How the data were processed

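NK cells of 3 sorted populations from 5 pigs were profiled by 3′ RNA sequencing. Reads had been trimmed and mapped to Sscrofa11.1, and the authors deposited raw counts per gene (29886 genes, 15 libraries). How reads were assigned to genes, with which strand setting, and what became of reads with more than 1 alignment is not given in the sources used here. Each column was matched to its population and pig by name, leaving 0 unmatched. Library totals of 2003499 to 5680221 limit the precision of low genes. Where a population had 0 counts in every library, the fold is a lower bound against 3 counts per library and covers counting error only. No fold is given for genes detected in 1 population alone with 1 to 3 counts in the other.

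Genes were tested with edgeR 4.0.16 in R 4.3.3 by the two-sided quasi-likelihood test after TMM normalization and the default filter on low counts, in 1 fit of 15 libraries with population as the only term. Benjamini-Hochberg adjustment ran over 10939 genes, and an adjusted p under 0.05 was a call. SE is the size of the log2 fold change over the square root of F. CPM use TMM-adjusted totals. Lists are described by counts and medians, with no set test. The fit was tested on simulated data. Plots were made with matplotlib 3.10.9 (Python 3.11.15). Coordinates and shared bases come from a RefSeq table of Sscrofa11.1, without strand, in which 29862 genes were found. Shared bases are not given beside every named gene that has them.

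Libraries of a pig pair because the labels give the same donor. Deviations of its liver libraries from their population means correlated at 0.073 to 0.113 (mean 0.0897), against a mean of -0.0226 between pigs. Libraries within a liver population differed beyond counting noise in all 20 pairs (chi-square per degree of freedom 9.41 to 46.7). P-values measure the spread between these pigs.

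Members and lists were chosen with earlier results of these data known. Named genes are the 4 markers of the comparison, the 12 largest rises and falls seen in all 5 pigs with at least 100 CPM, up to 4 called and 2 abundant uncalled members of each list, the 6 largest changes in CPM each way among genes not already named by these rules, up to 8 genes detected in 1 population alone, the sort markers and genes sharing bases with these. Others, such as EOMES, ZEB1, KLF2, ITGA1, GZMB, FCGR3A, CD96, TGFBR2 and IFIT3, were named after their values were seen. Alternatives were DESeq2 1.42.0, its size factors or upper-quartile scaling in edgeR, other filters, robust dispersion, thinning, the pig as a block, the liver libraries alone and leaving out each pig. Leaving out single lrNK or CD8αhigh libraries that stood apart, or the lrNK libraries of pigs 2 and 4, was chosen after seeing the data.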

Additional observations from a re-analysis of the deposited data

Results flagged for a closer look

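Levels of 50 named genes were searched for a library far from the other 4 of its population, and 8 of 76 groups held one, where chance alone flags about 1 in 20 groups. In 5 of the 8 it was the CD8αhigh liver library of pig 1, which lay above the other 4 CD8αhigh libraries and toward the lrNK levels. There CXCR6 had 153 CPM, PLXNC1 had 116 CPM, ARHGAP18 had 64.9 CPM, KLRF1 had 33.8 CPM and THY1 had 25.9 CPM. Without that library TNFSF10, RUNX3, SEMA4C and ISG15 lost their call among 252 named genes. EOMES, at 218 CPM, and LYST, at 346 CPM, were also highest in that library among CD8αhigh ones.

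The lrNK library of pig 3 stood apart for 2 genes, SET, at 5342 CPM, and TBX21, at 80.9 CPM. Among lrNK libraries it held the highest marker sums of hepatocytes (29.7 CPM), endothelial cells (23.9 CPM) and platelets (178 CPM). The same was true of stellate cells and fibroblasts (19.5 CPM) and cholangiocytes (5.36 CPM). Its sums were the lowest for NK cells (5238 CPM), monocytes and macrophages (2.44 CPM) and erythroid cells (0 CPM). The source of these counts was not tested. The same library had the lowest lrNK level of CXCR6 (86.2 CPM), KLRB1 (193 CPM) and KLF2 (2.92 CPM). Without it JAML and FOXO1 lost their call and 10 named genes gained one, IL2RB, CD2 and LAT among them. The lrNK library of pig 1 was apart for TOX2, at 299 CPM against 98.0 to 140.2 CPM in the others.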

How the results depend on the processing

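The count of genes called between lrNK and CD8αhigh liver NK cells ran from 1288 with liver libraries alone to 1960 by DESeq2, was 1764 (820 higher) without the lrNK library of pig 3, and no alternative called a gene in the opposite direction. Leaving out a pig gave 1051 to 1453 calls (458 to 656 higher, 593 to 809 lower), and 871 to 1098 over 2-fold. With the pig as a replicate block, 1716 genes were called, 782 higher and 934 lower, of which 703 and 810 were also called without it. Among the 252 named genes the blocked calls that differ are given beside their genes, except SLAMF1, HRH2, LYZ and ISG15, which lost their call, and TNFRSF1A, which gained one. Over 252 named genes and 18 alternatives, 4316 results kept their call, 141 lost it, 34 gained one and 0 reversed. The remaining pairs had no result, for example where a gene did not pass the filter of that alternative. The 7 genes called between liver and blood CD8αhigh cells became 22 by DESeq2, 18 without a filter, 4 with robust dispersion, 12 without the lrNK library of pig 3, and 0 to 8 without a pig, and the cause was not tested. Genes detected in lrNK cells alone numbered 13 at 10 counts or more, 0 at 50 or more and 5 to 15 without a pig; in CD8αhigh cells alone they numbered 28, 5 and 18 to 26, and 9 after thinning to the smallest library. A lower minimum or fewer libraries is easier to meet, and a higher minimum or thinned counts harder. Among the lists, cell cycle genes numbered 1 to 4 and glycolysis genes 1 to 3 without a pig, against 4 each. The lrNK libraries had fewer counts than the CD8αhigh libraries at the median, so genes near the minimum of 20 counts are less surely detected there.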
